A study of Mus musculus with 15 samples.

Results

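Ribosomes are built in the nucleolus, where RNA polymerase I transcribes the precursor of the ribosomal RNAs. Small nucleolar ribonucleoproteins (snoRNPs) of the box C/D and box H/ACA classes modify this precursor by methylation and pseudouridylation, and large assemblies of processing factors fold it, cleave it and join it to ribosomal proteins to give the small (40S) and the large (60S) subunit. Rapidly dividing cells such as embryonic stem cells (ESC) transcribe the genes of this machinery at high levels. The genes described here are nucleolar members of that machinery, picked by name from a list of 44 symbols. Of these, 43 were found by exact symbol in the count tables, which hold 21662 genes, and Noc2l was not analysed here.

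Strand-specific RNA-seq after removal of ribosomal RNA was available for 15 samples of mouse ESC in 2 experiments on Hmga1, which encodes an architectural chromatin protein that binds AT-rich DNA. All cells had the 159 background, a mixture of 129Sv and C57Bl/6, and were grown in serum with LIF on feeder cells or gelatine. In the KO experiment, WT had 3 samples (a, b and c), and 2 samples each (a and b) came from Hmga1 KO cells, from the Hmga1 add-back and from the Hmga2 add-back. The letters are batches, made up of libraries prepared together and run on 1 flow cell. The KO line is 1 clone in which a Cas9 cut at an intron-exon junction of Hmga1 shifted the reading frame. The add-backs are KO cells with biotin-tagged Hmga1 or Hmga2 cDNA placed at 1 defined genomic site under the CAG promoter, in a background that expresses the biotin ligase BirA. The full-deletion experiment had 3 WT samples and 3 samples of a line from which guides on either side had removed the Hmga1 coding sequence, all sequenced in 1 lane. Replicates were cultures harvested on different days, so that p-values measure the spread between cultures of 1 line and not between clones.

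Summed gene counts ranged from 13465399 to 34952136 in the KO experiment and from 14832310 to 21708492 in the full-deletion experiment. The targeted gene, in CPM (counts scaled to a common total after TMM normalization within each experiment), was between 221 and 464 in WT and at 217 and 96.1 in the KO samples. Transcripts were thus still counted in the frameshift line. The paper detected no Hmga1 protein in this line by Western blot, and it describes the remaining transcript as lacking an exon. Within batches, KO a (217) lay under WT a (464) and KO b (96.1) under WT b (276). The lowest WT sample, at 221, was WT c, whose batch holds no KO sample. Counted Hmga1 was at 184 CPM in Hmga1 add-back a and 123 in b, and at 138 and 101 in the Hmga2 add-back. These values lay below WT of the same batch, below the KO sample in batch a and above it in batch b. By Western blot, the paper reports Hmga1 protein in the Hmga1 add-back at levels similar to WT. RNA counts and protein levels are unlike measures, and the add-back is a cDNA counted over the whole gene. The paper also names an Hmga1 pseudogene, and reads that matched several places were assigned randomly. In the full-deletion experiment Hmga1 fell from between 310.4 and 357 CPM in WT to between 10.9 and 12.3. All 10 ESC markers were detected in each of the 15 samples, with a summed level of 4474 to 7664 CPM. Markers of feeder fibroblasts summed to 5.21 to 24.3 CPM, with Col3a1, Dcn, Lum and Postn at 0 in most samples. Mesoderm markers summed to at most 8.71 CPM, neural markers to at most 159.8 and primitive endoderm markers to at most 466, of which Sparc was the greater part. The WT b library of the full-deletion experiment stood apart from all others. Its normalization factor was 0.752 where the other 5 libraries of that experiment had 0.986 to 1.12, so results that rest on it are given with and without it.

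Every one of the 43 genes had at least 166 counts in each sample, and none was removed by the filter on low counts (a mean of at least 10). Levels were compared between genes as CPM divided by the counted exon length in kilobases (RPKM) in WT of the KO experiment. Npm1, which encodes the histone chaperone nucleophosmin, was highest at 1329 ± 284 (SD, n = 3), and Ncl, which encodes nucleolin, a phosphoprotein with long acidic stretches and RNA-binding domains, was next at 931 ± 255. These levels differed by less than 2 SD of either gene. In WT of the full-deletion experiment the order was the other way, with Ncl at 2797 ± 1844 RPKM and Npm1 at 1434 ± 304. The level of Ncl was divided by 8257 counted bases, of which 2124 are coding. Npm1 has many processed copies in the mouse genome, and reads that matched more than 1 place were assigned randomly, so its level is uncertain. Mybbp1a, a nucleolar Myb-binding protein, was lowest among the phosphoproteins at 149 ± 13.1 RPKM. Among the box C/D proteins, the scaffold protein Nop58 was highest (634 ± 221) and Rrp9, a U3-specific protein, lowest (72.8 ± 7.28). Among the box H/ACA proteins, Nhp2 had 216 ± 28.0 RPKM and Gar1 had 16.4 ± 2.75, although both belong to the same particle as the pseudouridine synthase Dkc1 (173 ± 39.4). RNA polymerase I transcription was represented at 139 ± 9.47 RPKM by the initiation factor Rrn3 and at 32.5 ± 2.96 by Polr1a, the largest subunit of the enzyme. In the small subunit group Wdr43 was highest (164 ± 40.6) and Rrp12 lowest (32.2 ± 4.07), and in the 60S group levels ran from the RNA helicase Ddx21 (362 ± 63.6) to Nle1 (8.74 ± 2.19). In WT of the full-deletion experiment Rrp12 (84.5) lay above Utp20 (47.2), and Nhp2 (159) lay below Dkc1 (172).

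**Figure D1:**
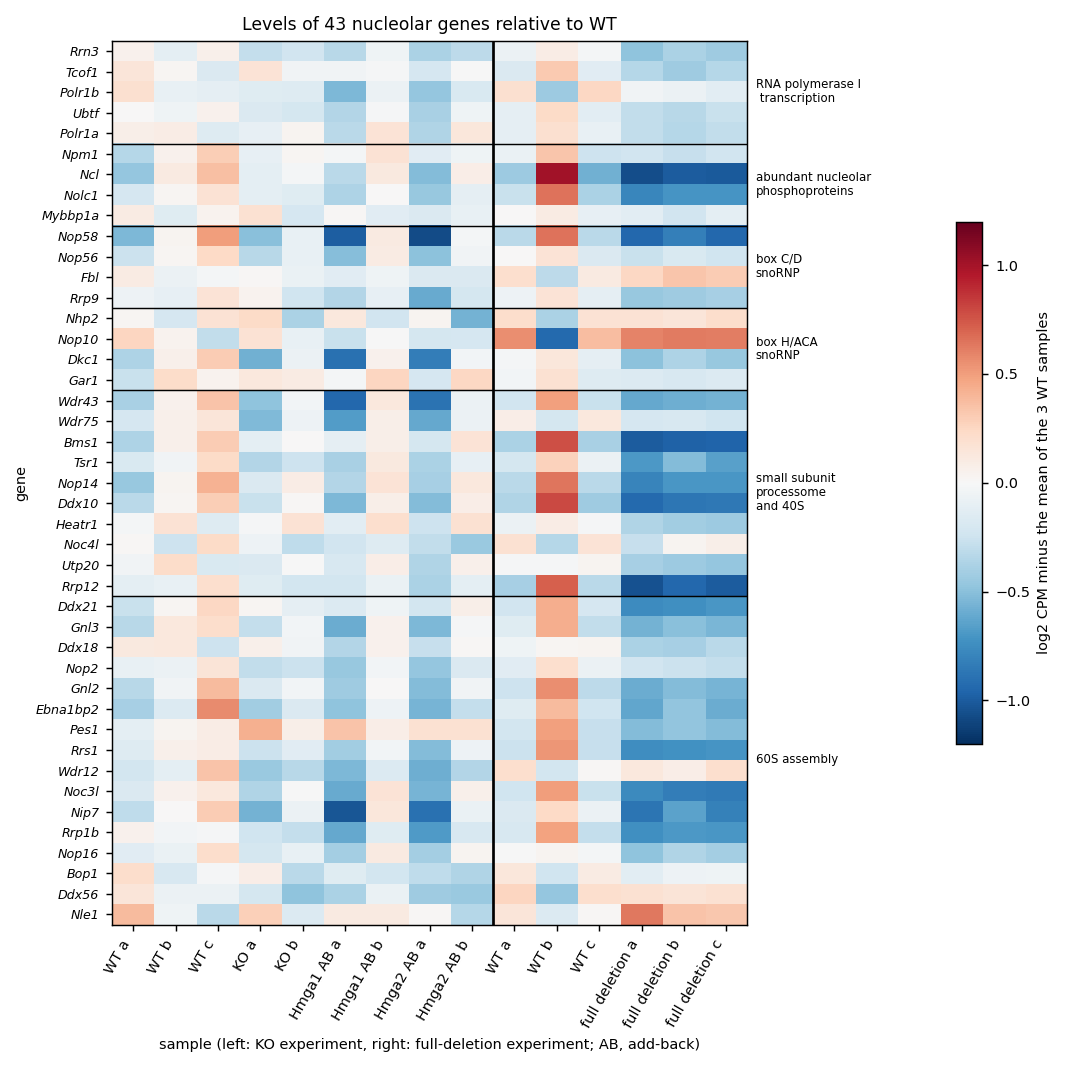
Level of each of the 43 genes in each of the 15 samples, as log2 CPM minus the mean of the 3 WT samples of the same experiment; rows are grouped by role and ordered by WT level, and the black vertical line separates the experiments. WT b of the full-deletion experiment differs from WT a and WT c, the full-deletion samples are mostly below WT, and in the KO experiment batch a is mostly below batch b in the add-backs.

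Ncl took the largest share of counts among the members. In the KO experiment its share of all gene counts was 0.558%, 0.770% and 0.891% in the 3 WT samples. The KO samples had 0.706% and 0.722%. It had 0.647% and 0.773% in the Hmga1 add-back and 0.569% and 0.770% in the Hmga2 add-back, so that no condition stood apart. In the full-deletion experiment Ncl had 1.49% in WT a, 3.06% in WT b and 1.34% in WT c, against 1.08%, 1.11% and 1.11% in full-deletion a, b and c. In all 6 of these libraries it was the most abundant of all genes, while in the KO experiment it ranked from 2 to 4. The 3 full-deletion values lay below all 3 WT values, and WT b lay above the rest. Exact binomial (Clopper-Pearson) 95% intervals of these shares were at most 0.0145 percentage points wide, 3.05% to 3.06% in WT b, and cover counting error only. The 43 genes together took 1.94% to 2.65% of counts in the KO experiment, 3.29%, 5.06% and 3.08% in the WT samples of the full-deletion experiment (a, b, c) and 2.64% to 2.69% in the full-deletion line. Without Ncl, the other 42 genes took 1.80%, 2.01% and 1.74% in these WT samples and 1.56% to 1.58% in the full-deletion samples. Ncl counts came from 8257 counted bases, of which 2124 are coding. The gene lies on the minus strand of chromosome 1 from 88241294 to 88256030 (NCBIM37, the assembly also called mm9), and the counted bases are 56.0% of this span, where the median of the 43 genes was 18.2%. The span holds 3 small nucleolar RNA genes (Snora75, SNORD20 and Snord82), and of the 43 genes 7 host such RNAs in the GENCODE vM1 annotation.

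**Figure D2:**
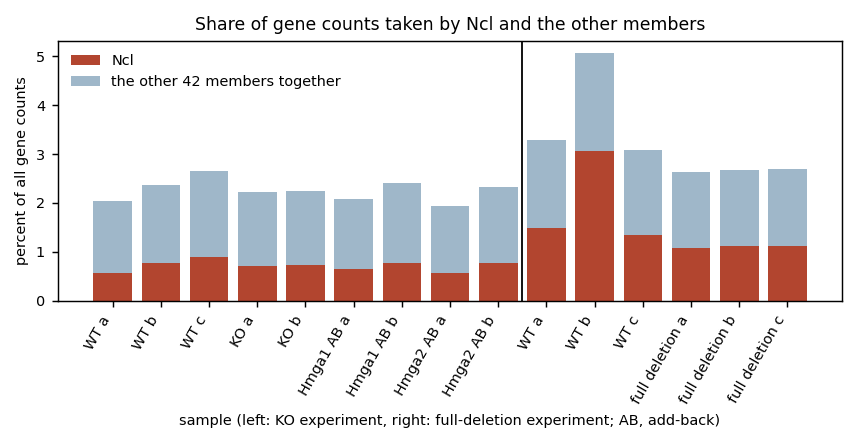
Percent of all gene counts taken by Ncl (red) and by the other 42 members together (blue) in each of the 15 samples, 1 stacked bar per sample. Ncl is at most 0.891% in the KO experiment, reaches 3.06% in WT b of the full-deletion experiment, and is 1.08% to 1.11% in the full-deletion samples.

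WT b of the full-deletion experiment was described by its log2 ratio to the mean of WT a and WT c. Being 1 library, it allows no test. The high share of Ncl in WT b was known when the genes were picked, so the rank of Ncl here is a description only. Ncl had 15013, 40652 and 13609 CPM in WT a, b and c, a log2 ratio of 1.51 (2.84-fold) that exceeded the ratio of 99.1% of genes. Next were the helicase Ddx10 (1.18), the GTPase Bms1 of the 40S pathway (1.16) and Rrp12 (1.08), followed by Nop58 (0.98) and the snoRNP-associated phosphoprotein Nolc1 (0.97). At the other end, Nop10, the smallest box H/ACA protein, had 56.4, 20.1 and 49.5 CPM, a log2 ratio of -1.40. It was followed by the helicase Ddx56 (-0.70), the polymerase I subunit Polr1b (-0.65), Nhp2 (-0.57) and Noc4l (-0.51). WT a and WT c differed by no more than -0.14 to 0.19 in log2 over the 43 genes. Most ratios of WT b lay outside this range, in either direction. Those of Utp20 (-0.03), Ddx18 (0.03), Nop16 (0.06), Heatr1 (0.13), Rrn3 (0.13) and Mybbp1a (0.15) lay within it. At least 2-fold higher were 4 of the 43 genes, against 5.07% of all genes, and at least 2-fold lower was 1, against 7.6% of all genes. Of the 43 ratios, 32 were above 0 and the median was 0.31, where that of all genes was -0.02. With scaling by summed counts alone the median of all genes moved to -0.42 and that of the members to -0.09, with 19 above 0, so the split by sign depends on the scaling while the distance to the median of all genes was about the same.

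The base composition of the coding sequence moved with this ratio. Nucleolar proteins are known for stretches of acidic and lysine-rich residues, whose codons GAA, GAG, AAA and AAG consist of purines, and GAT and GAC nearly so. The most purine-rich 60 coding bases within 1 exon are shown for the 3 members with the highest and the 3 with the lowest ratio in WT b. Purines (A or G) are in capitals, and sequences read 5′ to 3′ on the coding strand of NCBIM37.
Ncl, chr1:88253131-88253190, minus strand, 52 purines: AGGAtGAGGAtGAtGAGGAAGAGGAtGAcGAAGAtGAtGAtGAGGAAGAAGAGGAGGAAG
Ddx10, chr9:53012335-53012394, minus strand, 49 purines: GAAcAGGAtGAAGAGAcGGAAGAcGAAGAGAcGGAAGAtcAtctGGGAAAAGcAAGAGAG
Bms1, chr6:118333741-118333800, minus strand, 50 purines: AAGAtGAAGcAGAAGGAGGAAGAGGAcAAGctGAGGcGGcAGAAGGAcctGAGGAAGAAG
Polr1b, chr2:128950954-128951013, plus strand, 41 purines: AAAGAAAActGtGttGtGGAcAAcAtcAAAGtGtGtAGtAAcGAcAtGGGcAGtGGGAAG
Ddx56, chr11:6162484-6162543, minus strand, 41 purines: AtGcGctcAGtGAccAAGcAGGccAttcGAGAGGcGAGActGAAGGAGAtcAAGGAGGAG
Nop10, chr2:112102525-112102584, plus strand, 34 purines: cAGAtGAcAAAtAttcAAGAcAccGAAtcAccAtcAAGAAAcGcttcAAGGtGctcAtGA
Over the 42 members examined the richest window held between 34 (Nop10) and 55 purines, with a median of 48. The value of 55 was held by Polr1a and Nolc1, whose log2 ratios in WT b were 0.29 and 0.97. A longer coding sequence offers more windows to choose from, and Nop10 has 195 coding bases against 5154 in Polr1a. Of the whole coding sequence, A and G made up 64.5% in Ncl, the highest of the 43 and above 99.6% of all genes, and 46.2% in Nop10, the lowest of the 43. The median was 55.4% over the members and 51.7% over 18530 genes.

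Across the 43 members, Spearman's rho between purine content and the log2 ratio of WT b was 0.69, and 0.66 without Ncl. Across the 11593 genes tested that had a coding sequence it was 0.38. These values describe genes of the same 3 libraries, which share preparation and depth and are not independent replicates. When all genes were split by purine content into 5 classes of equal size, the lowest class had a median log2 ratio of -0.31 and the highest class had 0.40. Of the 43 members, 21 fell in the highest class and had a median of 0.66. The 2 members in the lowest class, Nop10 and Noc4l, had -1.40 and -0.51. Rrp12 departed from the trend, with 52.0% purines and a ratio of 1.08. With GC content of the coding sequence rho was -0.29 over the members and -0.24 over the genes. Among the members the relation to purine content was not particular to WT b, whereas over all genes KO against WT did not show it. For KO against WT, rho between purine content and the log2 fold change was 0.52 over the members and 0.02 over all genes. For batch b against batch a it was 0.51 and 0.33. The part of base composition in the values of WT b was not tested beyond these correlations.

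**Figure D3:**
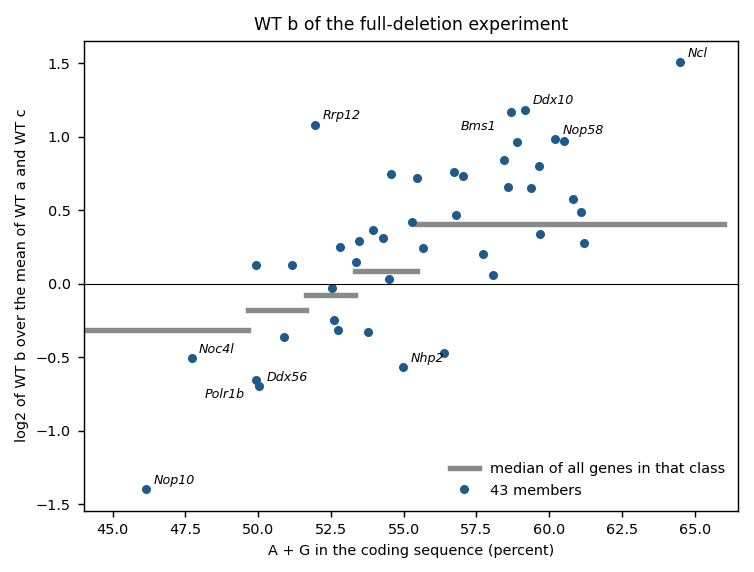
Log2 ratio of WT b to the mean of WT a and WT c in the full-deletion experiment (vertical axis) against the percent of A and G in the coding sequence (horizontal axis) for the 43 members (blue points, 10 of them named); grey bars are medians of all genes in 5 classes of purine content of equal size, the outermost drawn only to the edge of the axis. The members with over 58% purines lie above 0, and Nop10, at 46.2%, is lowest.

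The full deletion of Hmga1 was compared with WT to ask which transcripts change when the whole coding sequence is lost. Members were mostly lower in the full-deletion line. Of the 43, 32 had all 3 full-deletion samples below all 3 WT samples, against 24.6% of the 13098 genes tested, and 3 (Fbl, Nop10 and Nle1) had all 3 above, against 26.7% of genes. The other 8 overlapped. The median log2 fold change was -0.43 over the members and 0.04 over all genes, with 37 members below 0 and 6 above. WT varied widely, and few members passed the test. In the quasi-likelihood fit of edgeR, with p adjusted over all genes by Benjamini-Hochberg, 5 members fell at an adjusted p under 0.05, where 3.77% of genes did. None rose, against 4.47% of genes. At an adjusted p under 0.01 with a fold change of at least 2, no member was called, against 0.0687% of genes. At an unadjusted p under 0.05 there were 29 members, against 37.0% of genes. The 5 became 4 without WT a and 0 without WT c or any 1 full-deletion library, and 23 with the DESeq2 Wald test. With scaling by summed counts 1 passed, and the medians were -0.13 over the members and 0.32 over all genes. Fewer cells expressing a gene and less RNA per cell cannot be told apart in these bulk samples. The feeder fibroblast markers, all 10 of which were found, summed to 5.21 to 8.26 CPM in WT and 10.6 to 11.9 in the full-deletion samples, without overlap. Among these genes only Fbln2 and Pdgfrb were higher without overlap. Col1a1 had 0.902, 0.429 and 0.530 CPM in WT and 0.181, 0.432 and 0.273 in the full deletion. Col3a1, Dcn and Postn had 0 in all libraries of this experiment. The groups did not overlap either in the summed ESC markers (4719 to 7664 CPM in WT and 4474 to 4536 in the full deletion), the neural markers (151 to 159.8 and 132 to 133) or the primitive endoderm markers (214 to 245 and 202 to 209), whereas mesoderm markers overlapped (2.33 to 4.05 and 3.39 to 4.02). Single ESC markers differed in direction. Pou5f1, Zfp42 and Klf4 were lower without overlap, Tfcp2l1, Dppa5a and Utf1 were higher without overlap, and Sox2, Nanog, Esrrb and Tdgf1 overlapped. Zfp42 had 1227, 2847 and 1187 CPM in WT and 902.5, 935 and 928 in the full deletion. Such gaps were common, with 24.6% of all genes below WT and 26.7% above, as given earlier. The part of these markers in the result was not tested.

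Nip7, a factor of 60S maturation, fell furthest among the 5. It had 199, 265 and 212 CPM in the WT samples a, b and c, against 122, 143 and 127 in the full deletion. All full-deletion values were below all WT values, and the log2 fold change was -0.78 ± 0.14 (SE, adjusted p = 0.0294). Nop16, also of the 60S pathway, had 78.9, 81.4 and 77.8 CPM in WT and 56.7, 61.7 and 59.7 in the full deletion, with no overlap and a log2 fold change of -0.42 ± 0.09 (adjusted p = 0.0383). Utp20, a large protein of the small subunit processome, had 413, 412 and 426 CPM against 317, 308 and 302, a log2 fold change of -0.43 ± 0.10 (adjusted p = 0.0439). In Nop16 and Utp20 WT b lay close to the other WT samples. Tsr1, which takes part in 40S maturation, had 385, 539 and 424 CPM in WT and 276, 310.2 and 283 in the full deletion (-0.63 ± 0.15, adjusted p = 0.0467). Rrp9 had 107, 125 and 103 CPM against 81.0, 82.7 and 84.6 (-0.43 ± 0.11, adjusted p = 0.0498). Ncl had 9685, 10141 and 10051 CPM in the full-deletion samples, below its lowest WT value of 13609, with a log2 fold change of -1.21 ± 0.43 and an adjusted p of 0.0917. Its SE was the largest of the 43.

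Without WT b the SE was smaller in all 43 members, the log2 fold change was nearer to 0 in 38 and further from it in 5, and in 2 it changed sign. This fit was chosen after seeing the data and compares 2 WT samples with 3 full-deletion samples. At an adjusted p under 0.05, 34 of the 43 members fell, where 22% of the 13163 genes did, and 1 rose, where 20.5% of genes did. No member passed the stricter call, against 2.75% of genes, since none changed 2-fold. The median log2 fold change was -0.34 over the members and 0.03 over all genes, and 39 members were below 0. All 5 genes of RNA polymerase I transcription fell, with log2 fold changes between -0.38 (Rrn3) and -0.19 (Ubtf, the upstream binding factor). All 10 genes of the small subunit group fell, led by Rrp12 (-0.63 ± 0.05, adjusted p = 6.5e-08) and Bms1 (-0.59 ± 0.05, adjusted p = 3.66e-08). Of the box C/D proteins 3 of 4 fell. Nop58 had a log2 fold change of -0.58 ± 0.05, while Fbl, the methyltransferase of the same particle, had 0.14 ± 0.06 (adjusted p = 0.0524). Of the 4 box H/ACA proteins Dkc1 fell (-0.37 ± 0.05), whereas Nhp2 (-0.01), Gar1 (-0.08) and Nop10 (0.14) did not pass. Of the phosphoproteins Ncl (-0.52 ± 0.05) and Nolc1 (-0.41 ± 0.05) fell, and Npm1 (-0.09) and Mybbp1a (-0.11) did not pass. In the 60S group 13 of 16 fell, led by Nip7 (-0.65 ± 0.06), Noc3l (-0.56 ± 0.05) and Ddx21 (-0.52 ± 0.05). The member that rose was Nle1, a regulator of 60S maturation that is the lowest in level. It had 12.6 and 11.5 CPM in WT a and c and 17.7, 14.4 and 14.2 in the full deletion, a log2 fold change of 0.35 ± 0.12 (adjusted p = 0.0248). Without WT b, rho between purine content and the log2 fold change was -0.30 over the members and -0.32 over all genes, against -0.52 and -0.40 with it. For GC content rho was 0.36 over the members and 0.34 over all genes, against 0.38 and 0.36 with WT b. The part of base composition in this comparison was not tested.

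**Figure D4:**
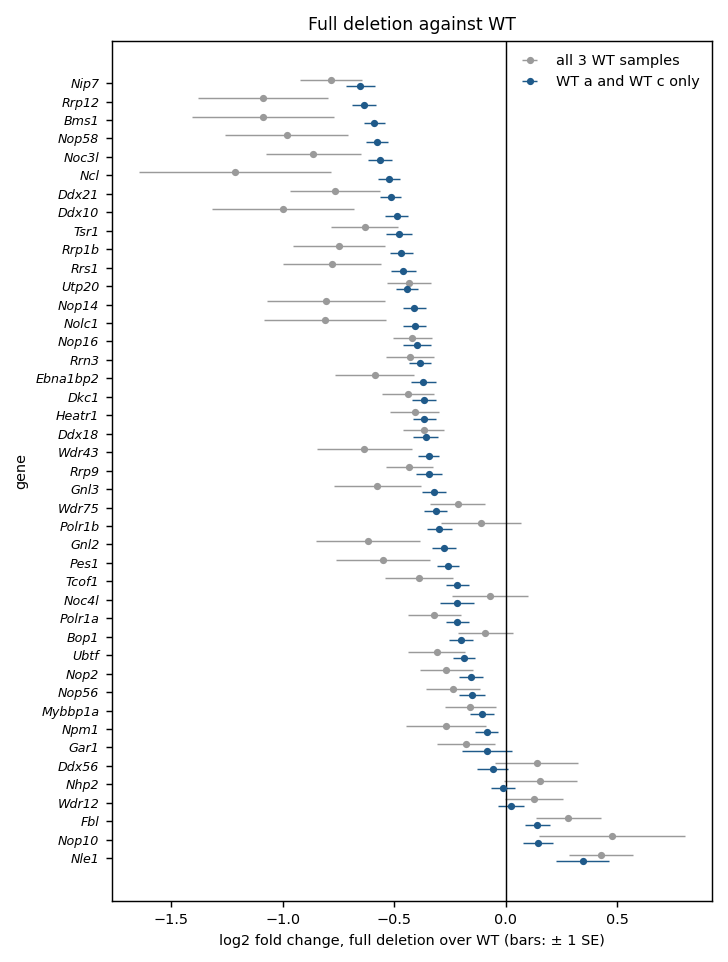
Log2 fold change of the full deletion over WT for the 43 genes, with all 3 WT samples (grey) and with WT a and WT c only (blue); bars are ± 1 SE from the edgeR fit. Ncl moves from -1.21 to -0.52 and its bar shortens, and 39 genes lie below 0 without WT b.

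Among 96 further genes of ribosome biogenesis, such as other processome components and assembly factors, 14 fell and none rose at an adjusted p under 0.05 in the full deletion, with a median log2 fold change of -0.37. Of all genes 3.77% fell and 4.47% rose, with a median of 0.04. Without WT b, 67 of the 96 fell and 2 rose, with a median of -0.24. In that fit 22% of all genes fell and 20.5% rose, with a median of 0.03. This list was also compiled with earlier results known.

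The KO experiment asked what follows from the frameshift and whether the cDNAs restore it. No member passed a test in any of its 5 comparisons. For Hmga1 KO against WT no member was called, against 0.0216% of the 13912 genes tested, and none had an adjusted p under 0.05, against 0.0647% of genes. The median log2 fold change was -0.08 over the members and -0.01 over all genes, with 31 members below 0 and 12 above, and 1 member had an unadjusted p under 0.05, against 12.6% of genes. This was Ddx56, which had 68.5, 59.2 and 59.1 CPM in the 3 WT samples and 53.6 and 44.5 in the KO samples, a log2 fold change of -0.38 ± 0.15 (adjusted p = 0.3695). Its KO values lay below all WT values. Pes1, a 60S factor of the complex with Bop1 and Wdr12, had a log2 fold change of 0.29 ± 0.14, and Wdr12 itself had -0.22 ± 0.11, neither past the threshold. Rrn3 (-0.23 ± 0.12) and Wdr75 (-0.23 ± 0.13), the next by p, did not pass either. These values depended on single libraries. Without WT a and without WT b respectively, Rrn3 had -0.07 and -0.38, Wdr75 -0.05 and -0.39, Pes1 0.12 and 0.47 and Wdr12 -0.15 and -0.28, and Ddx56 had -0.53 without KO a and -0.25 without KO b. Ncl had a log2 fold change of 0.12, with 5426, 8058 and 9590 CPM in WT and 6919 and 7386 in KO, and the KO samples lay within the range of WT. All 5 genes of RNA polymerase I transcription were below 0, with a median of -0.17. Within batch a, 26 members were below 0 and within batch b 39 were. In both batches at once 26 were below 0 and 4 above, and the medians were -0.08 in a and -0.12 in b. Over all genes the medians were -0.001 in a and -0.012 in b. Within a batch 1 KO library is set against 1 WT library. Without KO b the median of the full fit turned to 0.022. WT c is the only library of its batch, so these comparisons rest on a and b.

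For the add-backs against WT no member passed either. In the Hmga1 add-back the calls were 0 members against 0.0144% of genes, and at an adjusted p under 0.05 0 members against 0.0431%. In the Hmga2 add-back they were 0 members against 0.0647% and 0.165% of genes. The median member log2 fold changes were -0.12 and -0.19, with 34 and 37 members below 0. The smallest p in the Hmga1 add-back was that of Rrp1b, a nucleolar partner of protein phosphatase, at -0.40 ± 0.16 (adjusted p = 0.3567). Next came Polr1b (-0.36), Nop10 (-0.28), Ddx18 (-0.27) and Dkc1 (-0.27). Single libraries moved these values. Without WT a and without WT b respectively, Rrp1b had -0.20 and -0.59 and Polr1b -0.09 and -0.62. Without Hmga1 add-back a and without Hmga1 add-back b, Nop10 had -0.09 and -0.50, Ddx18 -0.11 and -0.44 and Dkc1 -0.09 and -0.46. In the Hmga2 add-back it was that of Ddx56, at -0.47 ± 0.15 (adjusted p = 0.2026), ahead of Wdr12 (-0.30), Rrp1b (-0.44), Bop1 (-0.35) and Rrn3 (-0.32). Here Rrp1b had -0.23 without WT a and -0.64 without WT b, Rrn3 had -0.15 and -0.47, and Bop1 had -0.22 without Hmga2 add-back a and -0.46 without Hmga2 add-back b. The 3 comparisons share the WT samples. Within batches the Hmga1 add-back differed in sign. The median was -0.27 in batch a, with 35 members below 0, and 0.02 in batch b, with 15 below 0, against 0.005 and 0.0015 over all genes. The Hmga2 add-back had medians of -0.32 in a and -0.10 in b, against 0.006 and -0.0135 over all genes. Against the KO cells they were made from, no member passed in the Hmga1 add-back (0% of genes were called and 0% had an adjusted p under 0.05) or in the Hmga2 add-back (0.00719% and 0.0144% of genes). At an unadjusted p under 0.05 there were 0 members in both, against 2.80% and 5.09% of genes, and the median member log2 fold changes were -0.04 and -0.11. The smallest p belonged to Tsr1 in the Hmga1 add-back (0.16 ± 0.12) and to Rrp9 in the Hmga2 add-back (-0.31 ± 0.16), with adjusted p of 0.9999 and 0.8767. After Tsr1 came Nop10 (-0.17), Ddx18 (-0.16), Gnl3 (-0.12) and Gnl2 (-0.11), and after Rrp9 came Nop10 (-0.25), Bop1 (-0.22), Noc4l (-0.19) and Gnl2 (-0.18).

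The batches of the KO experiment differed in these genes. Batch b was compared with batch a over the 4 conditions in the fit that also holds the conditions. At an adjusted p under 0.05, 17 of the 43 members were higher in batch b, where 18.6% of genes were, and 1 was lower, where 17.1% of genes were. Together these were 18, and 10 without Hmga2 add-back a. No member passed the stricter call, against 2.34% of genes. In all 4 conditions 23 members were higher in b, against 25.7% of genes, and 2 (Nhp2 and Bop1) were lower in all 4, against 25.8% of genes. The median was 0.23 over the members and -0.03 over all genes. With scaling by summed counts 11 members were higher in b, against 11.6% of genes, and 5 (Bop1, Mybbp1a, Nhp2, Nle1 and Noc4l) were lower, against 25.1%, with medians of 0.10 over the members and -0.15 over all genes. Nop58 differed most. It had 827 and 1230 CPM in WT a and b, 846 and 1126 in KO, 606 and 1292 in the Hmga1 add-back and 571 and 1182 in the Hmga2 add-back, a log2 difference of 0.78 ± 0.13 (adjusted p = 0.00352). The log2 difference was 0.57 in WT and 0.41 in KO but 1.09 and 1.05 in the add-backs. Wdr43, a factor of the small subunit processome (0.70 ± 0.12), Nip7 (0.69 ± 0.13) and Dkc1 (0.67 ± 0.10, adjusted p = 0.00292) followed. Wdr75 (0.50), Noc3l (0.49), the GTPase Gnl3 (0.47), Ddx10 (0.46) and Nop14 (0.45) were higher too, as were Ncl (0.43 ± 0.11, adjusted p = 0.0189) and Nop56 (0.40). The remaining members that were higher were Gnl2 (0.33), Rrs1 (0.30), Ebna1bp2 (0.29), Heatr1 (0.29), Utp20 (0.28) and Bms1 (0.28). Nhp2 was lower by 0.45 ± 0.09 (a log2 difference of -0.45, adjusted p = 0.00753). Of the 96 further genes 49 were higher and 6 lower in b. Batch a had 30742898 to 34952136 counts per library and batch b 13465399 to 14585417. GC content of the coding sequence moved with the batch difference, with a Spearman's rho of -0.63 over the members and -0.56 over 12270 genes. With purine content rho was 0.51 over the members and 0.33 over these genes. Depth, base composition and batch cannot be told apart here.

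**Figure D5:**
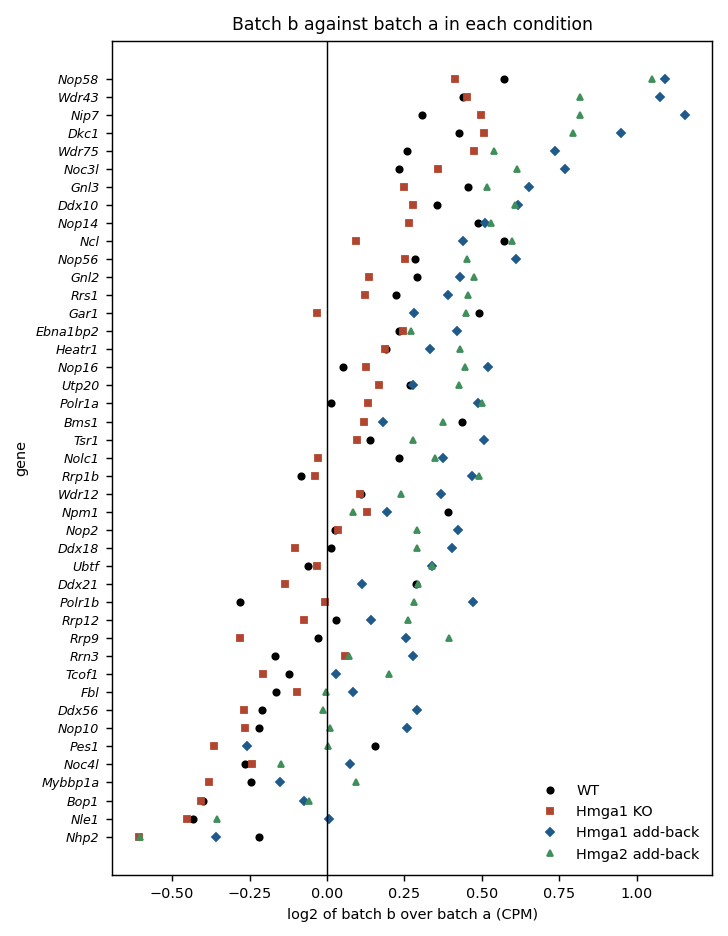
Log2 of batch b over batch a in CPM for the 43 genes in the 4 conditions of the KO experiment, genes ordered by the mean. For Nop58, Wdr43, Nip7 and Dkc1 all 4 points are at least 0.31, and the add-backs lie above WT and KO; Nhp2 and Bop1 have all 4 points below 0.

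The effects of the 2 alleles were compared by the interaction of experiment and genotype, with all 15 samples fitted jointly. No member passed, against 0.0951% of genes at the stricter call and 0.307% at an adjusted p under 0.05, and 14 members had an unadjusted p under 0.05, against 18.4% of genes. The median member difference was -0.39 in log2, lower in the full deletion, and that of all genes was 0.04. Ddx21 had the smallest p, with log2 fold changes of 0.09 (KO) and -0.77 (full deletion) and a difference of -0.87 ± 0.29 (adjusted p = 0.2226). It was followed by Bms1 (-1.21 ± 0.42), Pes1 (-0.86 ± 0.30), Nop14 (-0.99 ± 0.35) and Rrp12 (-1.03 ± 0.39). Leaving out WT b of the full-deletion experiment gave 7 members at an adjusted p under 0.05, all lower (Bms1, Ddx10, Ddx21, Ncl, Nop14, Pes1 and Rrp12), where 3.66% of genes were lower and 1.21% higher. Without this library the differences were nearer to 0, at -0.73 for Bms1, -0.64 for Ddx21, -0.61 for Nop14, -0.59 for Pes1 and -0.59 for Rrp12. An effect of the full deletion that differs from that of the KO was therefore not shown with all libraries.

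The promoters of the members were searched for 2 motifs known from genes of this machinery. These were CACGTG, the E-box bound by Myc and related factors, which reads alike on both strands, and CCGGAAGT, a site of Ets factors, on either strand. RefSeq promoters (GRCm38.p6, 250 bases before to 50 after the start) were matched for 36 of the 43 members. CACGTG was found in 8 of the 36 (22.2%), against 8.09% of 27025 genes with a promoter and 12.0% of the 10071 of these that were tested. CCGGAAGT was found in 8 of the 36, against 4.31% and 9.02%. Rrn3 and Tsr1 held both. For each motif 1 promoter is shown, over the 150 bases before the start, with the motif in capitals. Nip7 was chosen as the member with the largest decrease among those that passed in the full deletion, and Nop2 as a member with an E-box well before its start.
Nip7, GRCm38.p6 chr8:107056727-107056876, plus strand, CCGGAAGT beginning 103 bases before the start: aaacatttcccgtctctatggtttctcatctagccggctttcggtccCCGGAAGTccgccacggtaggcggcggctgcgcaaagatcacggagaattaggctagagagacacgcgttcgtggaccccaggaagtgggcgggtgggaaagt
Nop2, GRCm38.p6 chr6:125131733-125131882, plus strand, CACGTG beginning 60 bases before the start: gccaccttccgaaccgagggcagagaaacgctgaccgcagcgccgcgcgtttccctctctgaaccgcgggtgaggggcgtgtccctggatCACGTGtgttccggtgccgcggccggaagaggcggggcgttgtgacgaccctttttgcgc
Without WT b, the median log2 fold change of the full deletion was -0.30 in the 8 members with CACGTG and -0.36 in the 28 without, and -0.38 and -0.33 for CCGGAAGT. These medians differed by less than 0.10 and no test was made.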

How the data were processed

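RNA-seq of 15 mouse ESC samples was re-analysed from 2 tables of raw read counts per gene as deposited by the authors, who aligned 50-base single-end reads, trimmed by 3 bases, to mm9 (QuasR, bowtie), reported a single randomly chosen hit for multi-mapping reads, and counted reads on the strand of UCSC known gene exons; the tables also hold each gene's counted width. The submitters' processing notes name bcl2fastq 2.17. All count columns were used (0 were left out). Genes averaging 10 or more counts were tested with edgeR 4.0.16 (TMM, quasi-likelihood, R 4.3.3), with batch as a term in the KO experiment and in the joint fit. Calls required an adjusted p under 0.01 plus a 2-fold change; an adjusted p under 0.05 was also counted. SE is the log2 fold change divided by the root of F. Batches were taken from the study's methods. Deviations of WT a and b correlated with those of KO (r = 0.493) and the add-backs (0.36 and 0.38).

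The rule for named genes took Ncl, members at an adjusted p under 0.05 or else the 5 of smallest p, the 5 highest and 5 lowest ratios of WT b, and the highest and lowest level per role. The members and lists were chosen with earlier results of these data known. RPKM used the deposited width. Coding sequences were the longest per gene in GENCODE vM1 (NCBIM37); Tcof1 has no window. The fits were tested on simulated counts. Other tools were DESeq2 1.42.0, limma 3.58.1, python 3.11.15, scipy 1.17.1 and matplotlib 3.10.9. Alternatives were other scalings (DESeq2 size factors, summed counts, normalization without Ncl), other filters (none, mean of at least 50), the DESeq2 Wald test, limma-trend with a prior count of 2, only the groups compared, batch or replicate terms switched, and each sample left out.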

Additional observations from a re-analysis of the deposited data

How the results depend on the processing

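In all comparisons but those named here, the counts of members and the median member log2 fold changes moved by less than 1.5 times or less than the spread between replicates. For the full deletion against WT, members at an adjusted p under 0.05 numbered 5 in the fit as reported, 1 with scaling by summed counts, 11 without a filter on low counts, 23 with the DESeq2 Wald test (3 of them called) and 1 with a replicate block. The letters do not pair these samples, since same-letter deviations correlated at 0.0839, 0.0944 and -0.0556. In the KO experiment, whose fit has the batch term, no member passed with or without it. With summed counts the median member log2 fold change was -0.13 in the full deletion, with 0.32 for all genes, and -0.068 for the difference between the alleles, again with 0.32 for all genes. Members at an adjusted p under 0.05 ranged from 0 to 35 when each library was left out of the full-deletion comparison. There were 35 without WT b, 4 without WT a, and 0 without WT c or any full-deletion library. The cause was not tested, and leaving out a library also leaves fewer samples. The ranges were 0 to 7 for the difference between the alleles (7 without WT b), 0 to 1 for the Hmga2 add-back against WT (1 without WT b of the KO experiment), and 10 to 21 for batch (10 without Hmga2 add-back a, 21 without WT a). The median for the KO ranged from -0.21 without KO a to 0.022 without KO b. The share of Ncl in WT b was 3.26% without the 10 most abundant other genes. The median ratio of WT b was -0.088 with summed counts and 0.36 with DESeq2 size factors. Ncl reversed in sign at 0.012 (Hmga2 add-back against WT, summed counts), -0.10 and -0.13 (KO and Hmga1 add-back against WT, no replicate block), and over left-out libraries ranged from -0.10 to 0.33 (KO), -0.022 to 0.172 (Hmga1 add-back) and -0.161 to 0.083 (Hmga2 add-back) against WT, and from -0.258 to 0.169 and -0.375 to 0.066 for the add-backs against KO. In the Hmga1 add-back against KO, Tsr1 ranged from -0.008 to 0.31, Nop10 from -0.39 to 0.02, Ddx18 from -0.327 to 0.002, Gnl3 from -0.261 to 0.021 and Gnl2 from -0.237 to 0.012. Among the values of named genes under alternatives, 947 kept direction and side of the threshold, 81 lost and 8 gained an adjusted p under 0.05, and 14 changed sign.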
